A study of Saccharomyces cerevisiae with 6 samples.

Results

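PSD1 and the genes that carry phospholipids from phosphatidylserine to phosphatidylcholine, together with their inositol-dependent regulators, were followed across 6 RNA sequencing libraries of Saccharomyces cerevisiae W303, a common laboratory strain background. The 9 genes were PSD1, PSD2, CHO1, CHO2, OPI3, INO1, INO2, INO4 and OPI1, chosen by name and identifier and matched to the deposited transcript models through RefSeq symbols, out of 6931 loci in the count table. All 9 were among the 6171 loci tested. The 6 libraries formed 3 groups of 2. Cells of the pdr3Δ group lacked PDR3 and overexpressed PSD1 from the GAL promoter on a 2µ plasmid, a plasmid kept at many copies per cell. Cells of the PSD1 overexpression group carried the same plasmid with PDR3 intact, and WT was a wild-type control. All samples were described as grown with 1% yeast extract, 2% peptone and 2% raffinose, and GAL-PSD1 induction with 2% galactose for 4 h was marked as plus or minus without saying for which samples. The sources used here do not say whether WT carried an empty plasmid, and no group had the PDR3 deletion without the PSD1 plasmid. The labels do not state whether the 2 samples of each group were grown as separate cultures. The p-values therefore rest on a spread between samples that may be technical.

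In yeast, phosphatidylserine is made from CDP-diacylglycerol and serine by Cho1 in the endoplasmic reticulum. It is decarboxylated to phosphatidylethanolamine by Psd1 in the mitochondrial inner membrane and by Psd2 in Golgi, endosomal and vacuolar membranes. Cho2 adds the first methyl group to phosphatidylethanolamine and Opi3 adds the remaining ones to give phosphatidylcholine. The basic helix-loop-helix proteins Ino2 and Ino4 bind as a pair to the inositol-sensitive upstream element, whose core is CATGTG, and activate many of these genes. Opi1 represses them when inositol is plentiful and phosphatidic acid is low.

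A pair of upstream stretches shows the element in a gene called lower with PSD1 overexpression (INO1) and in a gene with no call (OPI3). Both were read from the RefSeq R64 genome, from 300 to 101 bases before the start codon, 5′ to 3′ on the coding strand, with each CATGTG on either strand in capitals. The INO1 stretch lies at chrX:136034-136233 and the OPI3 stretch at chrX:573036-573235, both on the minus strand.
INO1: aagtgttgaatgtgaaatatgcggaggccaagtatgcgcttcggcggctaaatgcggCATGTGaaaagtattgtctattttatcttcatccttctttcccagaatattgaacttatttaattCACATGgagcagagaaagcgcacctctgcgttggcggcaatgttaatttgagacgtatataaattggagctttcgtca
OPI3: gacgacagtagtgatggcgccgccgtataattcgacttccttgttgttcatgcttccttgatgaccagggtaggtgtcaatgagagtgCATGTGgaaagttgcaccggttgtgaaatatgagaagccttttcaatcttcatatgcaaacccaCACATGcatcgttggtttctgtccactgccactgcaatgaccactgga
The INO1 stretch overlaps the open reading frame YJL152W over 60 bp, and the OPI3 stretch overlaps the gene MOG1 over 141 bp. Of the 9 genes, 8 held CATGTG in this window (PSD1, PSD2, CHO1, CHO2, OPI3, INO1, INO2 and INO4), against 5.79% of 5825 such windows before protein-coding genes. OPI1 had no match to these letters in the window. Both strands were searched. None of the 9 held the full 10-letter consensus, CATGTG followed by AAAT, which 3 of all windows held. PSD1, CHO1, INO1 and INO2 held a CATGTG with at least 9 of its 10 letters, against 0.876% of windows. Ino2 and Ino4 are known to act on many of these genes through this element, so these shares carry no test.

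For the other 6 genes that hold a site, the one with most consensus letters (for PSD2, the one nearer the start codon) is printed in the direction of the consensus, 20 bases long, with CATGTG in capitals, so that the letters after the core can be compared.
PSD1: ccctgCATGTGatatgtgat
PSD2: taacgCATGTGctacttcaa
CHO1: gggtcCATGTGaaagctcaa
CHO2: cttctCATGTGaagagttca
INO2: acacaCATGTGaattttttt
INO4: aaaaaCATGTGaatattttg
They lie at chrXIV:317901-317920 (PSD1), chrVII:837005-837024 (PSD2), chrV:208623-208642 (CHO1), chrVII:802168-802187 (CHO2), chrIV:699598-699617 (INO2) and chrXV:111997-112016 (INO4) of the same build. The INO2 site is read on the minus strand of the genome and the other 5 on the plus strand. The INO2 site overlaps a second CATGTG on the opposite strand. The plasmid copy of PSD1 was expressed from the GAL promoter, so the PSD1 site printed is that of the chromosomal gene.

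**Figure D1:**
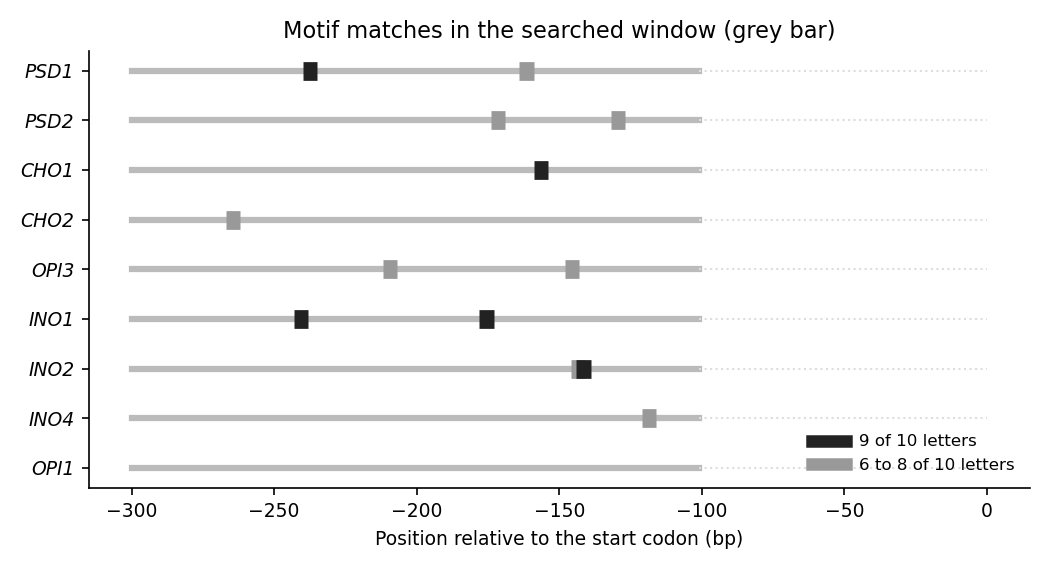
Position of each CATGTG match, on either strand, relative to the start codon (x axis, bp) in the 9 genes (y axis); grey bars mark the searched window from 300 to 101 bases before the start codon, black boxes sites with 9 of the 10 letters of the consensus and grey boxes sites with 6 to 8. PSD1, PSD2, OPI3, INO1 and INO2 hold 2 sites each, CHO1, CHO2 and INO4 hold 1, and OPI1 holds none in the window.

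Total counts ran from 10220872 to 12315448 per library. PDR3 had 3 and 9 counts in pdr3Δ, against 2283 and 2245 in PSD1 overexpression and 724 and 798 in WT. The comparisons with WT also differed outside the overexpressed gene. GAL1, the galactokinase gene, had 8385.0 and 8037.8 CPM in pdr3Δ (CPM being counts per library total after scaling between libraries), 6399.4 and 6008.5 CPM in PSD1 overexpression, against 42.1 and 18.8 CPM in WT. URA3, which serves pyrimidine synthesis and as a selection marker, accounted for 0.443% and 0.591% of counts in pdr3Δ, 1.21% and 1.28% in PSD1 overexpression, and 1.65% and 1.72% in WT. The part of these differences in the results on phospholipid genes was not tested, and galactose induction and PSD1 dose cannot be told apart in comparisons with WT.

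Of the decarboxylase genes, PSD1 (YNL169C, chromosome XIV, 316169 to 317671, minus strand) reached 9369.9 and 9070.9 CPM in pdr3Δ, 14465.8 and 16489.0 CPM in PSD1 overexpression, against 1494.8 and 1318.8 CPM in WT. The 3 groups did not overlap, and PSD1 overexpression was highest. Reads of the chromosomal and the plasmid copy cannot be told apart in these counts. Per length, PSD1 stood at 6220.3 and 6059.2 FPKM (fragments per kilobase of transcript, scaled to sequencing depth) in pdr3Δ, 9681.2 and 10953.6 FPKM in PSD1 overexpression, and 1017.0 and 893.5 FPKM in WT. PSD1 was the highest of the 9 genes per length in every library, WT included. It exceeded 99.3% and 99.2% of tested loci in pdr3Δ, 99.6% and 99.7% in PSD1 overexpression, and 94.1% and 93.3% in WT.

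PSD2 (YGR170W, chromosome VII, 837142 to 840558), the decarboxylase gene of the endomembranes, was nearly level. It had 112.1 and 109.7 CPM in pdr3Δ, 111.4 and 111.3 CPM in PSD1 overexpression, against 113.3 and 104.6 CPM in WT. No comparison called it: log2 0.03 in PSD1 overexpression against WT (95% interval -0.09 to 0.16, edgeR adjusted p = 0.641), -0.01 in pdr3Δ against PSD1 overexpression (-0.13 to 0.12) and 0.03 in pdr3Δ against WT (-0.10 to 0.15). On the FPKM scale PSD1 was 202 and 203 times PSD2 in pdr3Δ, 312 and 357 times in PSD1 overexpression, and 32.2 and 31.0 times in WT.

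PSD1 was 11.0-fold higher in PSD1 overexpression than in WT (log2 3.46 ± 0.10 SE, n = 2 each, edgeR quasi-likelihood adjusted p = 3.51e-09) and 6.55-fold higher in pdr3Δ than in WT (2.71 ± 0.09, adjusted p = 2.17e-08). In pdr3Δ it was 0.596 times the level in PSD1 overexpression (-0.75 ± 0.09, adjusted p = 0.000668). The groups compared for PDR3 thus differed in PSD1 dose as well. Over 205 bp PSD1 shares its locus with YNL170W, an open reading frame of the opposite strand, and the sources used here do not say whether counting was by strand. YNL170W had 77 and 67 counts in pdr3Δ, 76 and 74 in PSD1 overexpression, and 101 and 113 in WT, so its count did not follow that of PSD1.

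**Figure D2:**
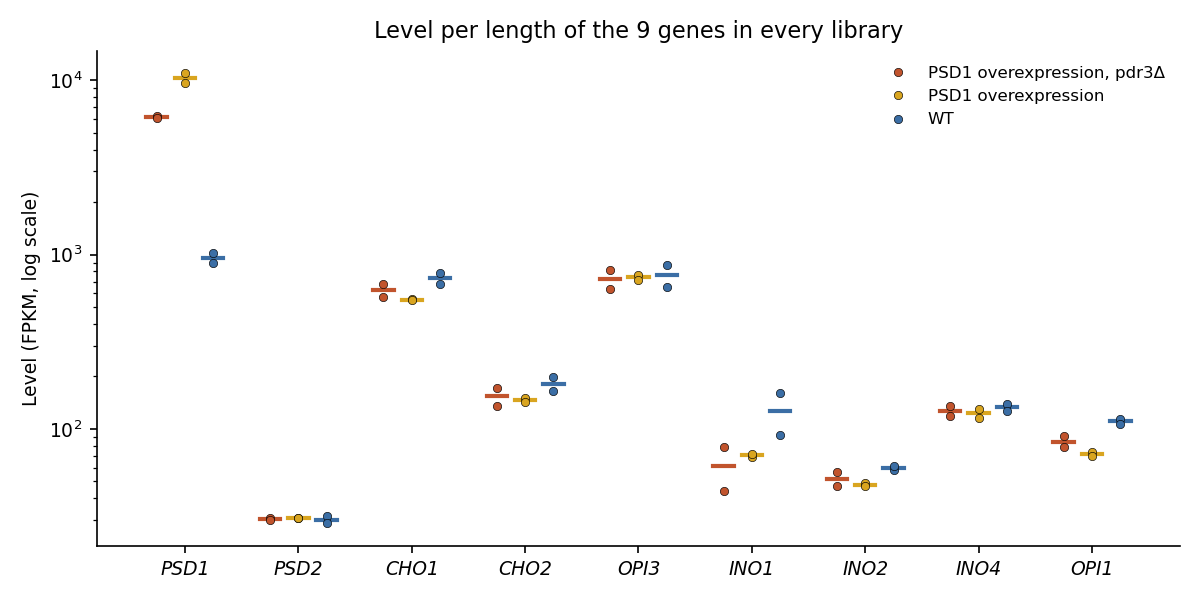
Level of each of the 9 genes (x axis) in FPKM on a log scale (y axis), with 1 point per library and a line at the mean of the 2 libraries of each group. PSD1 lies above the other genes in all 3 groups, at a mean of 6139.8 FPKM in pdr3Δ, 10317.4 in PSD1 overexpression and 955.2 in WT, and PSD2 lies lowest, at 30.3, 30.8 and 30.2.

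The order of the other genes per length was nearly the same in all groups, with OPI3, CHO1, CHO2 and INO4 after PSD1. OPI3 averaged 726.2 ± 132 FPKM in pdr3Δ, 738.7 ± 32.2 in PSD1 overexpression and 760.9 ± 157 in WT (SD, n = 2 each). CHO1 averaged 622.5 ± 73.8, 551.6 ± 2.6 and 730.9 ± 75.0 FPKM in the same groups, so that the spreads of OPI3 and CHO1 overlapped in pdr3Δ and WT. Within single libraries OPI3 exceeded CHO1 in all but WT library 2 (649.9 against 677.8 FPKM). Lower down, INO1 averaged 126.3 ± 47.9 FPKM in WT, where it could not be set apart from INO4 (133.1 ± 8.82) or OPI1 (110.5 ± 5.94). OPI3, the later methyltransferase gene, stood at 4.74 and 4.65 times the FPKM of CHO2 in pdr3Δ, 5.08 and 4.99 times in PSD1 overexpression, and 4.40 and 3.97 times in WT. INO4 likewise stood at 2.39 and 2.53 times INO2 in pdr3Δ, 2.66 and 2.46 times in PSD1 overexpression, and 2.39 and 2.07 times in WT.

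The rest of the route was next compared with WT, where galactose induction and PSD1 dose cannot be told apart. CHO1 and CHO2, which act before and after PSD1, were lower in PSD1 overexpression, as were INO1, INO2 and OPI1, by between 0.28 and 0.83 on the log2 scale. PSD2, OPI3 and INO4 had no call. Of the 9 genes, 6 were called against WT (edgeR adjusted p under 0.05), PSD1 higher and 5 lower, where 55.8% of all tested loci were called, 27.9% higher and 27.9% lower. With so many loci called, 6 of 9 is not far from that share, but PSD1 was overexpressed by design. Of the 8 other genes 0 were higher and 5 lower, with a median of -0.30. These counts carry no test, since the genes were chosen with earlier results of these data known. The median log2 fold change was -0.28 over the 9 genes and 0.01 over all tested loci.

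CHO1 (YER026C, chromosome V, 207644 to 208474), the phosphatidylserine synthase gene, had 357.0 and 357.7 CPM in PSD1 overexpression, against 507.0 and 439.4 CPM in WT. Both PSD1 overexpression libraries lay below both WT libraries. CHO1 fell by 0.40 ± 0.08 on the log2 scale (adjusted p = 0.00215), and kept its call in each alternative fit of this gene, with adjusted p of at most 0.0261. CHO2 (YGR157W, chromosome VII, 802440 to 805049), the first methyltransferase gene, had 330.6 and 325.5 CPM in PSD1 overexpression, against 436.7 and 362.9 CPM in WT. It fell by 0.28 ± 0.11 (adjusted p = 0.0437), and the call was lost without WT library 1 (-0.15, adjusted p = 0.274), without PSD1 overexpression library 1 (-0.30, 0.143) or 2 (-0.27, 0.184), and with DESeq2 (0.17). OPI3 (YJR073C, chromosome X, 572315 to 572935) had 388.2 and 359.6 CPM in PSD1 overexpression, against 442.0 and 325.0 CPM in WT. The groups overlapped, and its value of -0.04 ± 0.14 (adjusted p = 0.848) had a 95% interval from -0.36 to 0.29, which includes the change of CHO2.

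INO1 (YJL153C, chromosome X, 134332 to 135933), which encodes inositol-3-phosphate synthase, the first step of inositol synthesis, had 110.5 and 115.6 CPM in PSD1 overexpression, against 255.7 and 146.6 CPM in WT. The groups did not overlap, but the WT libraries differed widely. INO1 fell by 0.83 ± 0.27 (adjusted p = 0.0235), to 0.563 of the WT level. The call was lost without WT library 1 (-0.38, adjusted p = 0.181), with DESeq2 (0.132) and with either PSD1 overexpression library left out (-0.80 and 0.129 without library 1, -0.86 and 0.111 without library 2).

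Among the regulators, OPI1 (YHL020C, chromosome VIII, 66242 to 67456), the repressor gene, had 102.1 and 95.2 CPM in PSD1 overexpression, against 157.2 and 145.3 CPM in WT. It fell by 0.62 ± 0.08 (adjusted p = 7.88e-05), and both PSD1 overexpression libraries lay below both WT libraries. INO2 (YDR123C, chromosome IV, 698554 to 699468), one activator gene, had 39.2 and 37.8 CPM in PSD1 overexpression, against 46.5 and 49.1 CPM in WT. It fell by 0.31 ± 0.09 (adjusted p = 0.0158), a call lost without WT library 2 (-0.27, adjusted p = 0.0612) or PSD1 overexpression library 1 (-0.34, 0.0604) or 2 (-0.28, 0.0975). INO4 (YOL108C, chromosome XV, 111431 to 111886), its partner, had 39.9 and 35.7 CPM in PSD1 overexpression, against 42.7 and 39.5 CPM in WT, with an overlap and no call (-0.12 ± 0.09, 95% interval -0.32 to 0.08, adjusted p = 0.289). The repressor and 1 of the activators were therefore both lower in PSD1 overexpression.

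**Figure D3:**
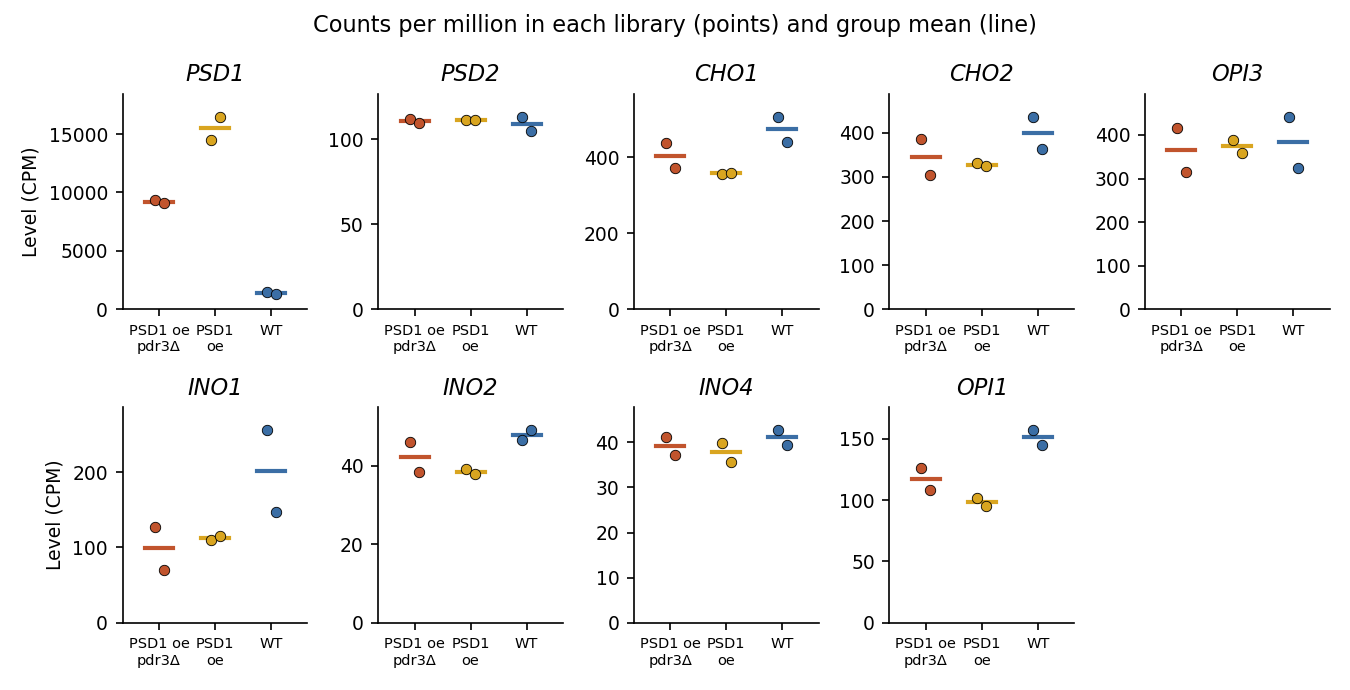
Scaled CPM (y axis, from 0) in each library (points) and their mean (line) for the 9 genes, with pdr3Δ, PSD1 overexpression and WT from left to right. CHO1, CHO2, INO1, INO2 and OPI1 are lower in both PSD1 overexpression libraries than in both WT libraries. The share of all tested loci with such separation is not given here, and it carries no test. The points of INO1 and OPI3 lie far apart in pdr3Δ and in WT.

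The comparison of pdr3Δ with PSD1 overexpression called 2 of the 9 genes, PSD1 (lower) and OPI1 (higher). Of all tested loci 20.9% were called, 11.8% higher and 9.12% lower. PSD1 in pdr3Δ was 0.596 times its level in PSD1 overexpression, so loss of PDR3 and PSD1 dose cannot be told apart here. OPI1 had 125.9 and 108.2 CPM in pdr3Δ and 102.1 and 95.2 CPM in PSD1 overexpression, without overlap, and rose by 0.25 ± 0.08 (adjusted p = 0.0484). That call sat at the threshold, and the PSD1 overexpression libraries also enter the comparison with WT. It was lost with DESeq2 (adjusted p = 0.0729), without pdr3Δ library 1 (0.13, adjusted p = 0.304) and without either PSD1 overexpression library (0.30 and 0.112 without library 1, 0.20 and 0.289 without library 2). CHO1 had 436.4 and 371.2 CPM in pdr3Δ, above both PSD1 overexpression libraries, at 0.18 ± 0.08 (adjusted p = 0.167). This passed without pdr3Δ library 2 (0.29, adjusted p = 0.0462). INO1 had 127.1 and 70.1 CPM in pdr3Δ, on either side of the PSD1 overexpression libraries, and its value of -0.19 ± 0.28 (95% interval -0.81 to 0.43) turned to 0.17 without pdr3Δ library 2 (adjusted p = 0.711). CHO2 had 384.9 and 305.0 CPM in pdr3Δ (95% interval of the difference -0.17 to 0.31) and OPI3 had 415.2 and 315.4 CPM (-0.35 to 0.29). INO2 had 46.1 and 38.3 CPM in pdr3Δ (-0.08 to 0.34) and INO4 had 41.2 and 37.2 CPM (-0.15 to 0.25). In CHO2, OPI3, INO1, INO2 and INO4 the 2 groups overlapped. PDR5, the drug efflux pump gene that Pdr3 activates, had 186.2 and 210.1 CPM in pdr3Δ against 3123.1 and 3591.2 CPM in PSD1 overexpression in the same libraries.

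Against WT, which also served the first comparison, pdr3Δ with PSD1 overexpression had 3 of the 9 genes called, where 39.1% of tested loci were called, 19.6% higher and 19.5% lower. PSD1 was higher, and INO1 and OPI1 were lower. OPI1 fell by 0.37 ± 0.07 (adjusted p = 0.00321). INO1 fell by 1.02 ± 0.27 (adjusted p = 0.0128), and both pdr3Δ libraries lay below both WT libraries. The INO1 call was lost without WT library 1 (-0.57, adjusted p = 0.0727) or pdr3Δ library 2 (-0.66, 0.0543) and with DESeq2 (0.0833). CHO1 stood at -0.23 ± 0.08 (adjusted p = 0.0518), without overlap between the groups. Among other settings, it passed without WT library 2 (-0.33, adjusted p = 0.00921) or pdr3Δ library 1 (-0.35, 0.00732) and with DESeq2 (0.0272). CHO2 stood at -0.21 (adjusted p = 0.144) and INO2 at -0.18 (0.145). Without pdr3Δ library 1 both passed, CHO2 at -0.39 (adjusted p = 0.00885) and INO2 at -0.32 (0.0253), and CHO2 also without WT library 2 (-0.34, 0.0255).

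**Figure D4:**
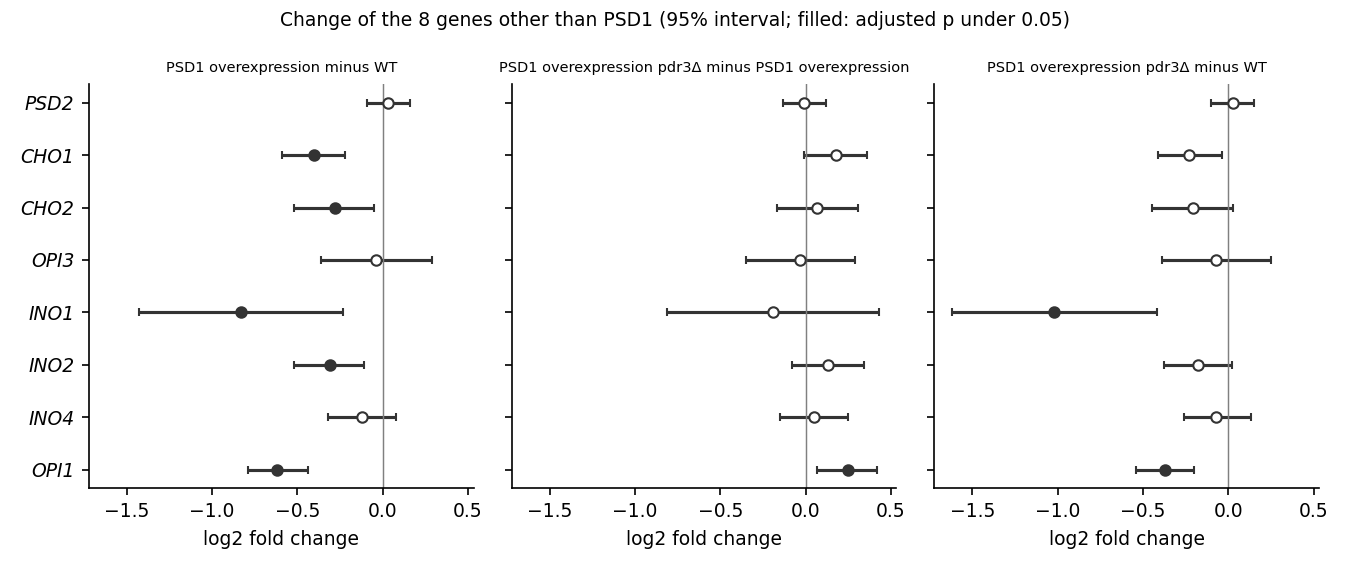
Log2 fold change (x axis) of the 8 genes other than PSD1 (y axis) in the 3 comparisons, each with its 95% interval from the edgeR fit; filled points passed an adjusted p of 0.05. In PSD1 overexpression minus WT the intervals of OPI1 (-0.62), CHO1 (-0.40), INO1 (-0.83), INO2 (-0.31) and CHO2 (-0.28) exclude 0. That of CHO2 ends nearest to 0, at -0.05, and INO1 has the widest intervals.

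Of the 9 genes, INO1, OPI3 and CHO2 varied most between samples of the same group. The biological coefficient of variation estimated by edgeR was 18.6% for INO1, 10.3% for OPI3 and 7.79% for CHO2, at the percentiles 99.7, 98.4 and 95.9 of the 6171 tested loci, whereas the common value was 4.66%. PSD2 had 3.82%. INO1 in library 1 was 1.81 times library 2 in pdr3Δ, 0.956 times in PSD1 overexpression and 1.74 times in WT. For OPI3 the same ratios were 1.32, 1.08 and 1.36. Over all tested loci the median fold between the 2 libraries was 1.05 in pdr3Δ, 1.05 in PSD1 overexpression and 1.06 in WT, and the 95th percentile was 1.29, 1.24 and 1.29. INO1 and OPI3 thus exceeded that percentile in pdr3Δ and WT and not in PSD1 overexpression.

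Other genes of phospholipid metabolism were taken from 9 lists with 64 tested loci. In PSD1 overexpression against WT 11 of them were higher and 20 lower, with a median of -0.03, against 0.01 over all tested loci, of which 27.9% were higher and 27.9% lower. The 31 called loci of the lists were fewer, in share, than the 55.8% over all loci. The lists were chosen with earlier results of these data known. ITR1, the main inositol permease gene, had 594.3 and 559.0 CPM in PSD1 overexpression, against 1534.5 and 1231.4 CPM in WT (-1.26 ± 0.15, adjusted p = 5.36e-05). HNM1, the choline permease gene, had 222.9 and 231.3 CPM in PSD1 overexpression, against 423.5 and 373.3 CPM in WT (-0.81 ± 0.08, adjusted p = 1.65e-05). CDS1, which encodes the CDP-diacylglycerol synthase of the endoplasmic reticulum, had 191.1 and 205.1 CPM in PSD1 overexpression, against 330.3 and 309.6 CPM in WT (-0.69 ± 0.07, adjusted p = 3.02e-05). In these 3 genes both PSD1 overexpression libraries lay below both WT libraries. They were picked by their p in this comparison, so the separation adds nothing to the calls. Of 61 listed genes with a window, 9 held CATGTG, and ITR1, HNM1, CDS1, ADO1, CPT1, FAS2 and EKI1 held one with 9 of the 10 consensus letters. EKI1, an ethanolamine kinase gene, was not called (0.01 ± 0.06, adjusted p = 0.864).

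Against the 55.8% of all loci called, the counts of the short lists are descriptions that carry no test. Of 7 genes of the CDP-choline and CDP-ethanolamine route, 3 were called, each lower, with HNM1 farthest from 0. Of 13 genes of phosphatidic acid and CDP-diacylglycerol supply, 2 were higher and 3 lower. GPT2, an acyltransferase gene of the first step, rose by 0.43 ± 0.05 (adjusted p = 4.63e-05) and APP1, a phosphatidate phosphatase gene, by 0.26 ± 0.06 (0.00331), whereas TAM41, which encodes the mitochondrial CDP-diacylglycerol synthase, fell by 0.32 ± 0.05 (0.000495). Of 4 other genes of inositol handling, 2 were higher and 1, ITR1, was lower, with the inositol monophosphatase gene INM2 at 0.40 ± 0.07 (adjusted p = 0.000834). Of 4 fatty acid synthesis genes 2 were called, both lower, among them ACS2, an acetyl-CoA synthetase gene, at -0.36 ± 0.05 (adjusted p = 0.000212). Of 6 genes that act with Opi1, Ino2 and Ino4, 1 was higher and 1 lower. SCS22, a paralog of the Opi1-binding membrane protein gene SCS2, had 38.4 and 36.6 CPM in PSD1 overexpression, against 22.9 and 19.8 CPM in WT (0.82 ± 0.10, adjusted p = 6.24e-05).

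All 4 genes of methyl donor supply were lower, with a median of -0.57, where 27.9% of all tested loci were lower. Cho2 and Opi3 take their methyl groups from S-adenosylmethionine. SAM2, an S-adenosylmethionine synthetase gene, had 342.6 and 331.3 CPM in PSD1 overexpression, against 675.4 and 548.9 CPM in WT (-0.86 ± 0.13, adjusted p = 0.000337). Its paralog SAM1 fell by 0.57 ± 0.05 (adjusted p = 4.75e-06), the S-adenosylhomocysteine hydrolase gene SAH1 by 0.57 ± 0.07 (9.76e-05) and the adenosine kinase gene ADO1 by 0.55 ± 0.05 (1.08e-05). How the counting treated reads that match both paralogs, SAM1 and SAM2, is not stated in the sources used here.

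Of 13 lipid transfer genes 6 were higher and 2 lower, where 27.9% of all tested loci were called in each direction. UPS2, whose product carries phosphatidylserine across the intermembrane space towards Psd1, had 208.0 and 210.6 CPM in PSD1 overexpression, against 428.6 and 412.5 CPM in WT (-1.01 ± 0.05, adjusted p = 2.23e-07). MDM35, the gene of its partner protein, had 144.7 and 158.9 CPM in PSD1 overexpression, against 93.5 and 98.4 CPM in WT (0.66 ± 0.06, adjusted p = 7.69e-06). Both pairs of groups were apart, in opposite directions, in genes picked by their p in this comparison. VPS13, a bridge-like lipid transporter gene, rose by 0.39 ± 0.08 (adjusted p = 0.00147), and SEC14, the phosphatidylinositol and phosphatidylcholine transfer gene, fell by 0.27 ± 0.05 (0.000927). Of 7 phospholipid breakdown genes 4 were called, each lower, with the phospholipase B gene PLB2 at -0.51 ± 0.06 (adjusted p = 5.55e-05) and the glycerophosphoinositol permease gene GIT1 at -0.63 ± 0.15 (0.00479). The 6 flippase loci lay between -0.09 and 0.19, and the smallest adjusted p among them was 0.0681, for CDC50, a flippase subunit gene. The loci of DRS2 and DNF2, both flippase genes, hold a second gene each, whose reads are counted with them. The calls of the 19 listed genes given with values held without any single library, and 7 others (CPT1, EPT1, FAS2, GDE1, INM1, NTE1 and UME6, between -0.28 and 0.20) lost theirs without at least 1 library.

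**Figure D5:**
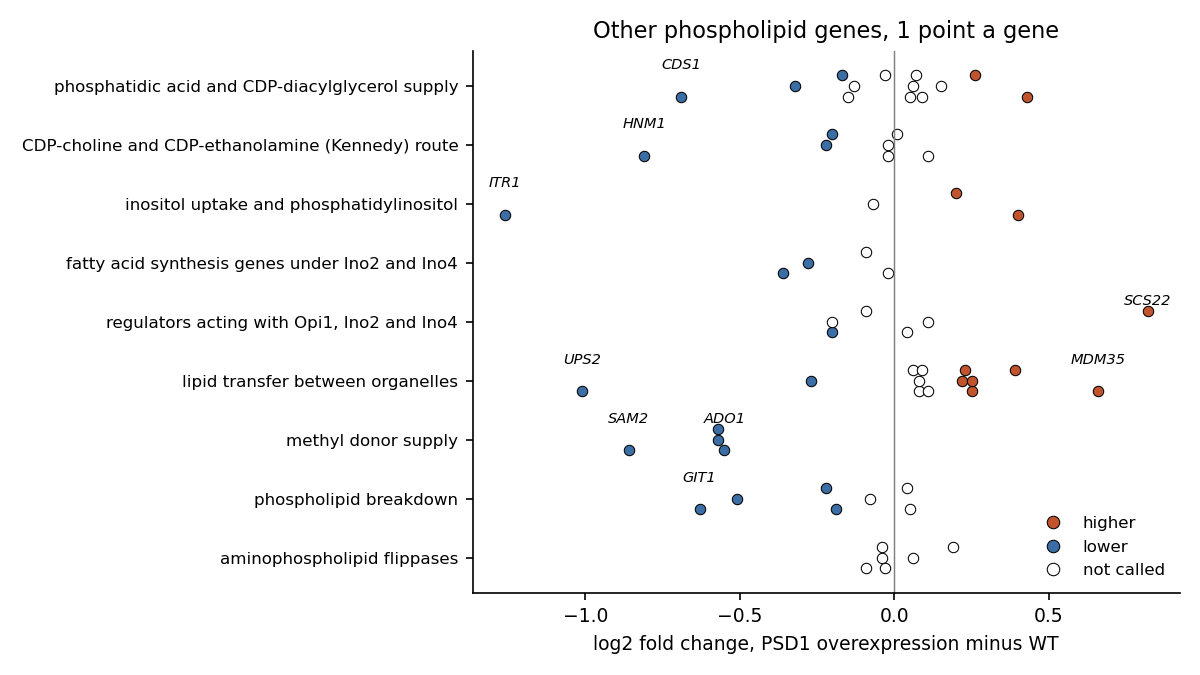
Log2 fold change in PSD1 overexpression minus WT (x axis) of 64 loci in 9 lists of phospholipid genes (y axis), 1 point a locus, coloured where called higher or lower by edgeR. ITR1 at -1.26, UPS2 at -1.01, SAM2 at -0.86 and HNM1 at -0.81 are the lowest points, and SCS22 at 0.82 and MDM35 at 0.66 the highest.

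In pdr3Δ against PSD1 overexpression 7 of the 64 loci were higher and 5 lower, with a median of -0.02, where 11.8% of all tested loci were higher and 9.12% lower. UPS2 had 294.2 and 273.3 CPM in pdr3Δ, above both PSD1 overexpression libraries (0.44 ± 0.05, adjusted p = 0.0007). The 26 listed genes named above with a call were picked by their p in PSD1 overexpression against WT. That comparison shares the PSD1 overexpression libraries with this one, so calls among them here are not an independent count. Of these 26 listed genes 8 were called here, and UPS2 was the only one to keep its call without each library in turn. CDS1 had 287.2 and 245.3 CPM in pdr3Δ (0.43 ± 0.08, adjusted p = 0.00469, or 0.38 and 0.0574 without PSD1 overexpression library 1). Against WT 10 of the 64 loci were higher and 20 lower in pdr3Δ, with a median of -0.06, where 19.6% of all tested loci were higher and 19.5% lower. UPS2 (-0.57 ± 0.05), ITR1 (-0.87 ± 0.15), HNM1 (-0.49 ± 0.08), SAM2 (-0.70 ± 0.13) and SAM1 (-0.56 ± 0.05) were below WT. MDM35 (0.50 ± 0.06) was above it, and the edgeR adjusted p of these genes lay between 1.23e-05 and 0.00190. They were picked by their p in PSD1 overexpression against WT. Both comparisons use the same WT libraries, so these values are not an independent repeat.

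The tested loci most like a gene in pattern were found by Pearson's r of log2 CPM over the 6 libraries, among 5792 loci of mean log2 CPM of at least 2. The points are 3 groups of 2 libraries, and r takes no account of the size of a change. For PSD1 these were YLR217W (0.9994), the Hsp110 gene SSE1 (0.9992) and ECM4, a glutathione transferase gene (0.9991). Of the 324 bp of YLR217W, 303 lie opposite CPR6, and the sources used here do not say whether reads of this pair were separated by strand. SSE1 rose by 1.06 against WT with PSD1 overexpression, against 3.46 for PSD1. For CHO1 they were LST4 (0.9897), SAM3, the S-adenosylmethionine permease gene (0.9887), and SCW4, a cell wall glucanase gene (0.9857). For INO1 they were BUD3 (0.9918), SCH9 (0.9878) and IOC2 (0.9844), and for OPI3 TIM12 (0.9838), ULS1 (0.9467) and SAM35 (0.9389). In PSD1 overexpression against WT these 6 lay between -0.11 and 0.02, with adjusted p of at least 0.194, whereas INO1 stood at -0.83.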

How the data were processed

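RNA sequencing of 6 W303 yeast samples (RNeasy extraction and TruSeq libraries, per the labels) was deposited by the authors as a table of whole-number counts per locus and a table of FPKM values. Per the submitters' processing notes, Bowtie2 2.1.0, TopHat2 2.0.9, Cuffdiff 2.2.0, Cufflinks 2.2.0 and SAMtools 0.1.18 were used, with sacCer3 as the genome build. How reads were counted, by strand or not, and how multiply mapped reads were treated was not given in the sources used here. Samples were grouped by their labels. The deposited counts were scaled by TMM and tested with edgeR 4.0.16 (R 4.3.3), with a quasi-likelihood fit over all 6 libraries and 3 groups (3 residual degrees of freedom), the filterByExpr filter and Benjamini-Hochberg adjustment over 6171 loci. Calls have an adjusted p under 0.05. Groups are said to be apart, or not to overlap, when every library of the first lies on the same side of every library of the second. With so few samples a group this carries no test, and its share over all tested loci is not given here. Standard errors are the log2 fold change over the square root of F, and intervals are 95%. FPKM served for levels between genes. Total counts of 10220872 to 12315448 set the counting precision.

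Symbols and sequences are from RefSeq R64, whose start and end matched 5988 of 6007 shared gene names. Named genes were the 9 members, up to 4 of each list with the smallest p in PSD1 overexpression against WT, the 3 loci most alike to PSD1, INO1, OPI3 and CHO1, the loci overlapping members, and PDR3, PDR5, GAL1 and URA3. The members, lists and rules were chosen with earlier results of these data known, and 1 item of the naming rule is not reported here. Alternatives were other scalings and filters, DESeq2 1.42.0, limma 3.58.1 (voom, and log2 FPKM with pseudocounts of 1 and 0.1), a minimum fold, a replicate block, and leaving out each library. The 2 libraries of each group differed beyond counting noise (chi-square per degree of freedom of 3.01 to 7.15), so no library was treated as a copy of another; this check does not tell separate cultures from separate library preparations.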

Additional observations from a re-analysis of the deposited data

How the results depend on the processing

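Among the log2 fold changes of the 9 members and the named listed genes, 1633 of 1785 alternative values kept their direction and their side of the threshold, 111 lost a call, 20 gained one and 21 changed sign, none of them for a value called with all libraries. In PSD1 overexpression against WT, 3443 loci and 6 members were called, and 301 loci and 1 member at an absolute log2 fold change of at least 1; leaving out a library gave 2732 to 3388 loci, 3 to 6 members and 23 to 32 listed genes (31 with all libraries). In pdr3Δ against PSD1 overexpression, 1291 loci and 2 members were called. DESeq2 called 814 loci, log2 FPKM 825 (pseudocount 1) and 829 (pseudocount 0.1), and the minimum fold left 26 loci and 0 members. OPI1 lost its call, leaving 1 member, with RLE scaling, library sizes without PSD1, no filter, a minimum count of 50, DESeq2, voom and both FPKM fits. Leaving out a library gave 233 to 1533 loci, lowest without PSD1 overexpression library 2 (535 without library 1), 1 to 3 members and 2 to 13 listed genes (12 with all libraries). In pdr3Δ against WT, 2415 loci and 3 members were called, and 163 loci and 2 members at the minimum fold; leaving out a library gave 1801 to 2226 loci, 2 to 6 members and 17 to 29 listed genes (30 with all libraries). The causes were not tested.

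Values that changed sign without a library were PSD2 (-0.03 to 0.09) and OPI3 (-0.24 to 0.20) in PSD1 overexpression against WT. In pdr3Δ against PSD1 overexpression they were PSD2 (-0.02 to 0.01, and 0.01 with library totals alone), OPI3 (-0.25 to 0.15), CHO2 (-0.11 to 0.23), INO1 (-0.69 to 0.17), INO2 (-0.01 to 0.26), INO4 (-0.03 to 0.14), GIT1 (-0.20 to 0.37), SAM2 (-0.09 to 0.37), EPT1 (-0.03 to 0.08) and SAM1 (-0.02 to 0.04). In pdr3Δ against WT they were PSD2 (-0.03 to 0.09), OPI3 (-0.28 to 0.17) and INO4 (-0.14 to 0.004).

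Deviations of samples with the same replicate number correlated at 0.0407 (PSD1 overexpression and WT), 0.194 (pdr3Δ and WT) and -0.0203 (pdr3Δ and PSD1 overexpression) over 6171 loci. In CPM, library 1 over library 2 was alike in pdr3Δ and WT for INO1 (1.81 and 1.74), OPI3 (1.32 and 1.36), CHO2 (1.26 and 1.20) and CHO1 (1.18 and 1.15). For INO2 it was not (1.20 and 0.948). Of the listed genes, ITR1 (1.43 and 1.25) and SAM2 (1.37 and 1.23) were above 1 in both groups. GIT1 was near 1 in WT (1.49 and 1.02). The labels state no pairing, and these values do not settle whether samples of the same number were handled together. With the replicate block 3491, 1393 and 2483 loci were called in the 3 comparisons in the order above, with 6, 2 and 5 members and 32, 13 and 30 listed genes. CHO1 and CHO2 were the members that gained a call in pdr3Δ against WT.

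With 2 samples a group, a change of OPI3 between -0.36 and 0.29 on the log2 scale in PSD1 overexpression against WT could not be told from none.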

Other observations

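The counts of calls over all tested genes by the presence of CATGTG in the window from 300 to 101 bases before the start codon were taken after the data were seen and carry no test. In PSD1 overexpression against WT, 29.3% of 314 genes with CATGTG were higher and 29.9% lower, against 29.4% and 28.8% of 5268 genes without it. Of 50 genes whose CATGTG had at least 9 of the 10 consensus letters, 11 were higher (22.0%) and 19 lower (38.0%), with a median log2 fold change of -0.12. In pdr3Δ against WT, which shares the WT libraries, 8 of those 50 were higher and 14 lower, against 20.6% and 20.0% of the genes without CATGTG. In pdr3Δ against PSD1 overexpression, 6 of them were higher and 1 lower, against 12.5% and 9.7% of the genes without CATGTG. These 50 genes include PSD1, CHO1, INO1, INO2, ITR1, HNM1, CDS1, ADO1, CPT1, FAS2 and EKI1, so 9 of the 19 lower ones in PSD1 overexpression against WT are genes already described above.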
